A study of Mus musculus with 11 samples.

Results

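The regions described here are peaks of H3K27me3, the histone mark laid down by Polycomb repressive complex 2, in which the DNA itself was highly methylated. They were selected on measured values, from the unified H3K27me3 peak list, by 6 criteria: a position on chromosomes 1 to 19, a width under 20 kb, no overlap with a unified peak of H3K4me1 or H3K9me3, fewer than 30 CpGs per kb, 20 or more methylation calls in the H3K27me3 library of 250000 cells, and a methylation level above 80% in that library. A call is 1 read of 1 CpG, and the level is the percentage of calls that were methylated. Of 18122 unified H3K27me3 peaks on chromosomes 1 to 19 and X, 17634 lay on chromosomes 1 to 19 and 13099 of these were narrow enough and free of the other marks. Of these, 12159 were CpG-poor and 10786 had enough calls. The level criterion kept 3757 peaks, called the highly methylated peaks below, and left 7029 at 80% or less, called the other CpG-poor peaks. A further 1373 CpG-poor peaks had too few calls and were not placed in either set, and 940 peaks with 30 or more CpGs per kb served as a CpG-dense reference.

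The study used mouse E14 embryonic stem cells, an established line of 129/Ola background, grown in serum with leukemia inhibitory factor (LIF) and with no other treatment or genotype. In CUT&Tag-BS, an antibody directs a transposase to chromatin that carries a histone mark, and the released DNA is converted with bisulfite, so that each fragment reports both the mark and its DNA methylation. There was 1 H3K27me3 library from each of 4000, 20000, 100000 and 250000 cells, 1 H3K27me3 control from 250000 cells without bisulfite, and 2 sequencing runs each for H3K4me1 and H3K9me3 from 250000 cells, with reads of 35 bp in run 1 and 75 bp in run 2. The sources used here do not say that the cell numbers were separate cultures, so differences between libraries have no replicate error.

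H3K27me3 is known for covering CpG islands of silenced developmental genes in embryonic stem cells, where DNA is usually unmethylated. DNA methylation and H3K27me3 tend to exclude one another at such CpG-rich sites, and less so where CpGs are sparse. Most of the mouse genome outside CpG islands is methylated in serum-grown embryonic stem cells.

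Promoter windows inside the highly methylated peaks show the sequence involved. Each window runs from 250 bases before to 50 after a gene start in RefSeq (assembly GRCm38.p6). It is printed 5′ to 3′ on the gene's own strand in lower case, with every CG in capitals. CG reads the same on both strands. The first 4 windows are from the 10 with the most calls in the 100000-cell library. Figla, Batf and Kcnip1 are genes of specialised cells, and 4933414I15Rik has the most calls of any window. The Rgs12 window was chosen after its values were seen, because it was unmethylated inside a methylated peak.
Figla: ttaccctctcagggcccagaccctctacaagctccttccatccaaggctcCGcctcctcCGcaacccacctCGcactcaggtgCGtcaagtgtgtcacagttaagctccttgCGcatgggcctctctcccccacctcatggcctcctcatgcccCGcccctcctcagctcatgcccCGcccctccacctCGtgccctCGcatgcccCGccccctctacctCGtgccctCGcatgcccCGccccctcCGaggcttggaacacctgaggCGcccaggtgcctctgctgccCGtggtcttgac
Batf: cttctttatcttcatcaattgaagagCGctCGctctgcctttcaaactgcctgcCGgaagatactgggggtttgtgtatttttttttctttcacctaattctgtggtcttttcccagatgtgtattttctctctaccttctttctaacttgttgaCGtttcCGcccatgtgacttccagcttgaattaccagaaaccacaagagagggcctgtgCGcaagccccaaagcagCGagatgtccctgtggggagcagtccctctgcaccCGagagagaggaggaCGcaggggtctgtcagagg
Kcnip1: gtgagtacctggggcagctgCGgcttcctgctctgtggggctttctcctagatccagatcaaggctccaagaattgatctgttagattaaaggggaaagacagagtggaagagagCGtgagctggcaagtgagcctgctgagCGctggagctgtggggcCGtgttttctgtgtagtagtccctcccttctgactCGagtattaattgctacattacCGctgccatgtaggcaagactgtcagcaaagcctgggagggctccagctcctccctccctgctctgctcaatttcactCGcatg
4933414I15Rik: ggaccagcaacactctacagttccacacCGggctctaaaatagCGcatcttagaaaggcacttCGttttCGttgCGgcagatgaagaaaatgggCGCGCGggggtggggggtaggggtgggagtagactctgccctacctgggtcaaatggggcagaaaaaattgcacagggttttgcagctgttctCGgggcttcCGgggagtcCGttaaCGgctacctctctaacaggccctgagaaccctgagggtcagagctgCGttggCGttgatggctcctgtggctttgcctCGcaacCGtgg
Rgs12: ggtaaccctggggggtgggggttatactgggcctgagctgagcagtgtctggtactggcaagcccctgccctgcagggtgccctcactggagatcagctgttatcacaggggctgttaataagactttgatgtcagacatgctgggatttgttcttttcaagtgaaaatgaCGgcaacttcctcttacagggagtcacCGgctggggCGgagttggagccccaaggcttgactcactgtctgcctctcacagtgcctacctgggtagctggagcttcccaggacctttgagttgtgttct

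The Figla window (chr6:86016941-86017240, plus strand) held 16 CGs, and 68.0% of the 31396 RefSeq windows on chromosomes 1 to 19 held that many or fewer. Figla encodes an oocyte transcription factor. Its level was 70.4% (71 calls, 95% Wilson interval 59.0 to 79.8) in the 100000-cell library, while the whole peak around it (chr6:86010631-86022262) stood at 84.4% of 455 calls. In the 250000-cell library the window stood at 53.8% of 52 calls, and in the 20000-cell library at 40% of only 5 calls. In the 100000-cell library the upper bound of the promoter thus lay below the level of its peak. Wilson intervals cover counting error only, and calls without molecular identifiers are not fully independent.

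The Batf window (chr12:85686470-85686769, plus strand) held 9 CGs at 73.3% of 45 calls (59.0 to 84.0) in the 100000-cell library. Batf is a transcription factor of lymphocytes. The same window read 80% of 45 calls in the 250000-cell library and 70% of 10 calls in the 20000-cell library, so its interval covers all of these readings. The Kcnip1 window (chr11:33993144-33993443, minus strand) held 7 CGs at 88.6% of 44 calls (76.0 to 95), with 90.0% of 30 calls at 250000 cells. Kcnip1 encodes a protein that binds voltage-gated potassium channels. Its peak (chr11:33991584-33996308) stood at 90.0% of 219 calls and also overlapped the lncRNA genes 4930469K13Rik and Gm51857.

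The 4933414I15Rik window (chr11:50943676-50943975, minus strand) had 16 CGs and 107 calls, at 74.8% (65.8 to 82.0) with 100000 cells. It read 86.2% of 58 calls with 250000 cells and 93.3% of 30 calls with 20000. The Rgs12 window (chr5:34998828-34999127, plus strand) held only 3 CGs. Rgs12 encodes a regulator of G protein signalling. None of its 13 calls was methylated with 100000 cells (0% to 22.8%), and 25% of 8 calls were methylated with 250000 cells. The peak around it (chr5:34992864-35006021) stood at 84.5% of 296 calls.

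Of the other 6 windows with the most calls, 1600019K03Rik (95.5% of 44 calls) and LOC108168361 (92.9% of 42) were the most methylated with 100000 cells. Pla2g12b, a member of the phospholipase A2 family, was the lowest at 62.7% of 59 calls. Mfsd4b5 (78.9% of 38), Ces1h, a carboxylesterase (76.3% of 38), and Myl10, a myosin light chain (75.7% of 37), lay between them. In all, 207 windows of 187 genes lay wholly inside highly methylated peaks, and 95 of them had 10 or more calls. Their median level was 88.9%, with 59 windows above 80% and 6 under 50%. The 6 low windows belonged to Gm34772 (17.6% of 34 calls), Gm31373 (48.4% of 31), Slc28a1 (40% of 15), Gm33782 (0% of 14), Rgs12 and Lpar1 (27.3% of 11). The median was 4 CGs per window, compared with 7 over all 31396 windows on chromosomes 1 to 19. It was 15 in the 2551 windows inside the other CpG-poor peaks. Of those, 2258 had 10 or more calls, with a median level of 3.10%. The sets were split on level, so this gap in median level follows largely from the choice. Over all 31396 windows on chromosomes 1 to 19, 10317 had 10 or more calls, with a median level of 0.692% and 516 above 80%.

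**Figure D1:**
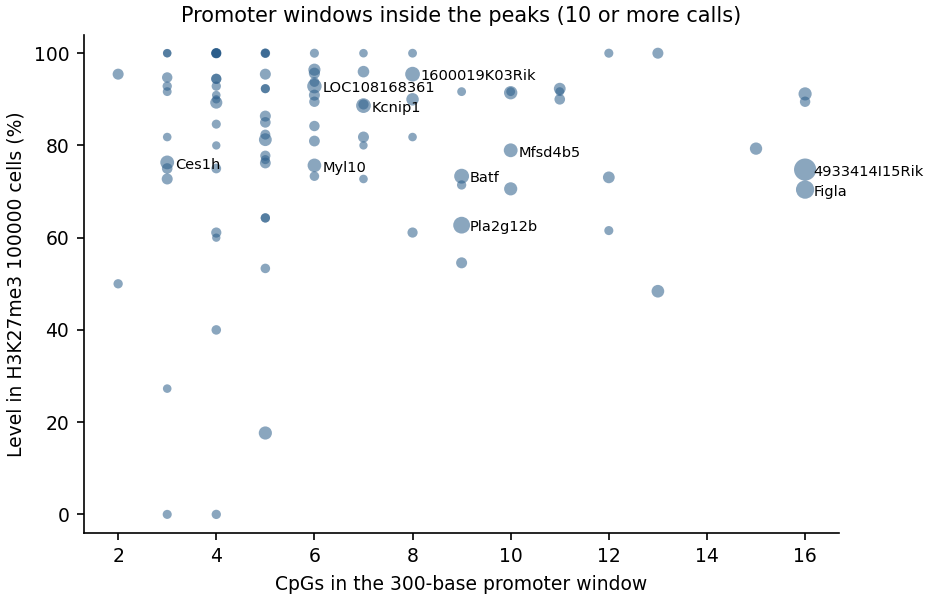
Methylation level of each RefSeq promoter window inside a highly methylated peak (y axis, percent methylated calls in the 100000-cell H3K27me3 library) against its number of CpGs (x axis), for the 95 windows with 10 or more calls; point area grows with the number of calls, and the 10 windows with the most calls are named. Most points lie above 80%, 6 lie under 50%, and the windows richest in CpGs (16) lie between 70.4% and 91.2%.

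In size the highly methylated peaks were narrow and sparse. Their median width was 1799 bp (1001 to 19751) against 3589 bp in the other CpG-poor peaks, and 860 of them had the minimum width of 1001 bp. They held a median of 22 CpGs (2 to 252) and 11.5 CpGs per kb, against 53 CpGs and 15.9 per kb. Together they covered 10.7 Mb. Among CpG-poor peaks of the minimum width, 51.6% were highly methylated, compared with 12% at widths of 8000 bp or more. By density it was 51.6% under 6 CpGs per kb and 10.3% from 20 to 30. The level that defines these shares came from the choosing library, and density and width were part of the rule, so they are given without a test.

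At the boundary of the choice, the 5 peaks just inside had 80.1% in the 250000-cell library with 196 to 477 calls. They lay in Galnt9, Gm34586 and 3425401B19Rik, 12.6 kb from Gm24612 and 3.79 kb from Gm40272. In the 100000-cell library the same 5 read between 78.2% and 87.5%. Just outside, 76 peaks were tied at exactly 80%. The first 5 of these in chromosome order had 20 to 115 calls. They lay in Aff3, Gm28867 and Ptprv, 5.08 kb from Rpsa-ps1 and 84.9 kb from Lmx1a, the nearest gene. They read between 74.4% and 100% with 100000 cells, so the boundary separates peaks whose readings overlap.

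In the library that chose them, the highly methylated peaks had a pooled level of 86.5%. In the 100000-cell library, which the choice did not use, it was 85.08% ± 0.147 (jackknife SE over 19 chromosomes, 271892 calls). By chromosome it ran from 84.1% on chromosome 14 to 87.7% on chromosome 13. In the 20000-cell library the level was 84.9% ± 0.251 (56379 calls) and in the 4000-cell library 83.6% ± 0.558 (4179 calls). The pooled level was above 80% in all 3 libraries that the choice did not use, and spanned under 2 points. The other CpG-poor peaks read 26.4% with 100000 cells, and CpG-dense peaks read 12.7%.

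Single peaks varied more than the pooled level. With 100000 cells, 3085 of the 3757 had 20 or more calls. Their levels ran from 42.9% to 100% with a median of 86.4% and quartiles of 81.5% and 90.8%, and 79.7% of them exceeded 80%. With 20000 cells, 849 had 20 or more calls, with a median of 85.0% and 70.6% above 80%. Only 8 peaks had that many calls with 4000 cells. For comparison, the other CpG-poor peaks had a median of 49.8% with 100000 cells, and 9.51% of them exceeded 80%. Over the 846 highly methylated peaks with 20 or more calls in both the 100000-cell and the 20000-cell library, the readings differed by a median of 5.28 points, and Pearson's r across peaks was 0.30, given as a description of a range that the choice narrowed. The 2 libraries share the cell line and the base composition of each peak.

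**Figure D2:**
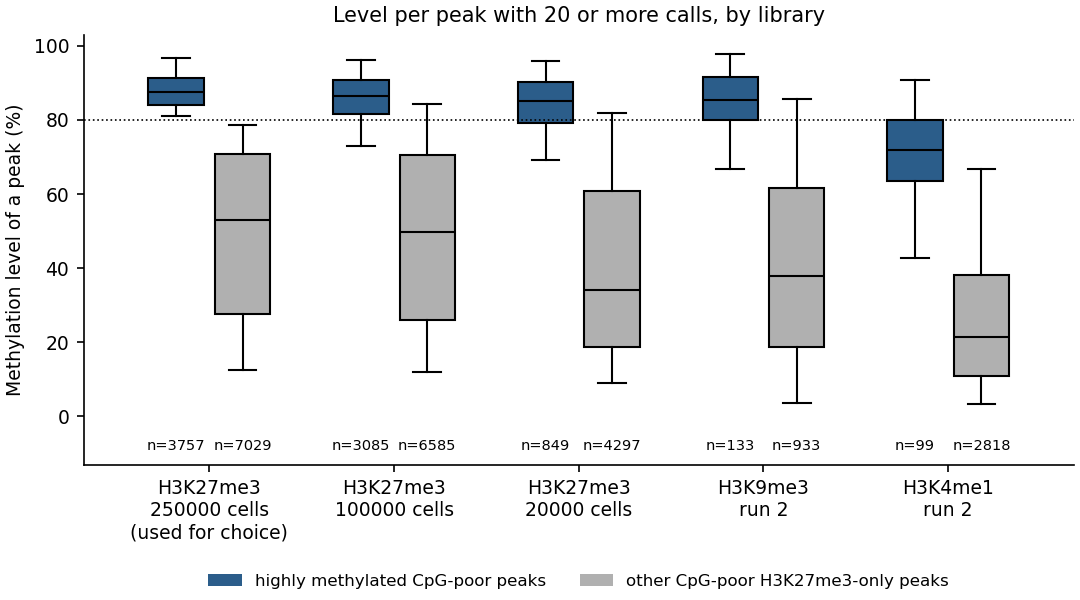
Methylation level of single peaks (y axis, percent) with 20 or more calls in each library (x axis); boxes give the median and quartiles, whiskers the 5th and 95th percentiles, and n the number of peaks. The highly methylated peaks have medians of 86.4%, 85.0% and 85.4% in the 100000-cell, 20000-cell and H3K9me3 libraries and 72.0% in the H3K4me1 library, and the other CpG-poor peaks have lower medians in every library shown.

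The peaks with the most calls gave the most precise readings. The one with the most was chr19:24068113-24085665, which overlapped the lncRNA gene Gm41824 and no protein-coding gene. It stood at 86.7% of 1486 calls with 100000 cells (84.9 to 88.4), 85.5% of 249 calls with 20000 and 79.2% of 24 calls with 4000. The peak chr11:35319567-35338795 in Slit3, which encodes a secreted guidance ligand, stood at 83.3% of 1451 calls, 81.1% of 286 and 69.2% of 13. In Anks1b, a gene for a postsynaptic protein, 1 peak (chr10:90700574-90718938) read 85.3% of 1212 calls and another (chr10:90856488-90870333) 88.2% of 941. The 10 best-covered peaks all lay between 83.3% and 89.8% with 100000 cells.

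The highest of those 10 was chr13:94539541-94551523 in Ap3b1, a subunit gene of the AP-3 trafficking complex, at 89.8% of 1210 calls. The others were peaks in Shisal1 (85.8% of 1094), Gsg1l, an auxiliary subunit gene of AMPA receptors (87.1% of 823), and Prkar1b, a regulatory subunit gene of protein kinase A (86.1% of 799), one near Gm52007 (83.3% of 983) and one near Gm39258 (85.5% of 801). Width alone gave a similar picture. The widest peak (chr5:120786676-120806426) covered parts of Oas1e and Oas1c, relatives of the 2′-5′ oligoadenylate synthetases of antiviral defence, and stood at 81.9% of 609 calls (78.7 to 84.8). Peaks of 18824 and 18724 bp in Clstn2 and Smco4 stood at 89.2% of 554 calls and 84.6% of 688.

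Among the 1620 peaks with 50 or more calls in the 100000-cell library, 1319 exceeded 80% and 23 lay under 70%. The lowest was chr12:112350052-112351052, 9.78 kb from Gm29890, at 51.9% of 79 calls (41.1 to 62.6). It read 81.5% of 65 calls with 250000 cells, where the choice required more than 80%. Next was chr6:122257082-122258906, 8.52 kb from Mug-ps1, at 52.7% of 165 calls. The following 8, at 54.9% to 64.8%, lay in Gm51898, Gm25009, Gm35977, Gm12263, Cracd and Ulk2 and near Gm52919 and Rad54l2. At the top, 3 peaks read 100%: one near Gm30416 (54 calls), one in Gm6189 (52) and one in 1700030C12Rik (51). Those in 4930552P12Rik (98.1%) and Dock2 (98%), a gene for a leukocyte exchange factor, followed.

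Single CpGs were read where calls allowed. In the 100000-cell library, 1401 CpGs in 363 highly methylated peaks had 10 or more calls. Of these, 73.5% exceeded 80%, 24.1% lay from 20% to 80%, and 34 CpGs (2.43%) in 23 peaks lay under 20%. In the other CpG-poor peaks, 69.8% of 177628 such CpGs lay under 20%. These deeply covered CpGs were 1401 of the 120802 CpGs in the highly methylated peaks. In the other CpG-poor peaks they were 177628 of 581021, so the 2 sets were sampled to unlike extents.

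The signal was also read against the DNA next to the peaks. With 100000 cells, CpGs within 5 kb of a highly methylated peak and outside all unified peaks stood at 79.7% (79.6 to 79.9), 5.37 points below the peaks. The peaks were chosen for a high level, which bears on this gap. For the other CpG-poor peaks the flanks stood at 76.6% and the peaks 50.2 points lower. In the central 1 kb the pooled level was 85.4% against 19.6%, and the mean of single CpG levels, which weights every CpG equally, was 85.5% against 39.4%. Since the sets were split on this level, a dip in the other CpG-poor peaks and none in the highly methylated ones follows from the choice.

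Call density, the number of calls per CpG, was used as a stand-in for H3K27me3 enrichment because the peak lists hold no scores. With 100000 cells it was 2.25 in the highly methylated peaks and 0.794 in their flanks, a ratio of 2.83. The ratio was 2.77 with 20000 cells and 2.70 with 4000. The other CpG-poor peaks reached 9.44 calls per CpG, 13.2 times their flanks, and CpG-dense peaks 4.95. In the H3K9me3 and H3K4me1 libraries (run 2 of each) the highly methylated peaks had 0.919 and 0.676 times the call density of their flanks. A density above the flanks for H3K27me3 and not for the other marks follows from the choice, which took H3K27me3 peaks and excluded those of the others, so only the sizes of these ratios are a description. Fewer cells with the mark and less of it per cell cannot be told apart in such bulk libraries. Against flanks of 20 kb the ratio was 3.85.

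**Figure D3:**
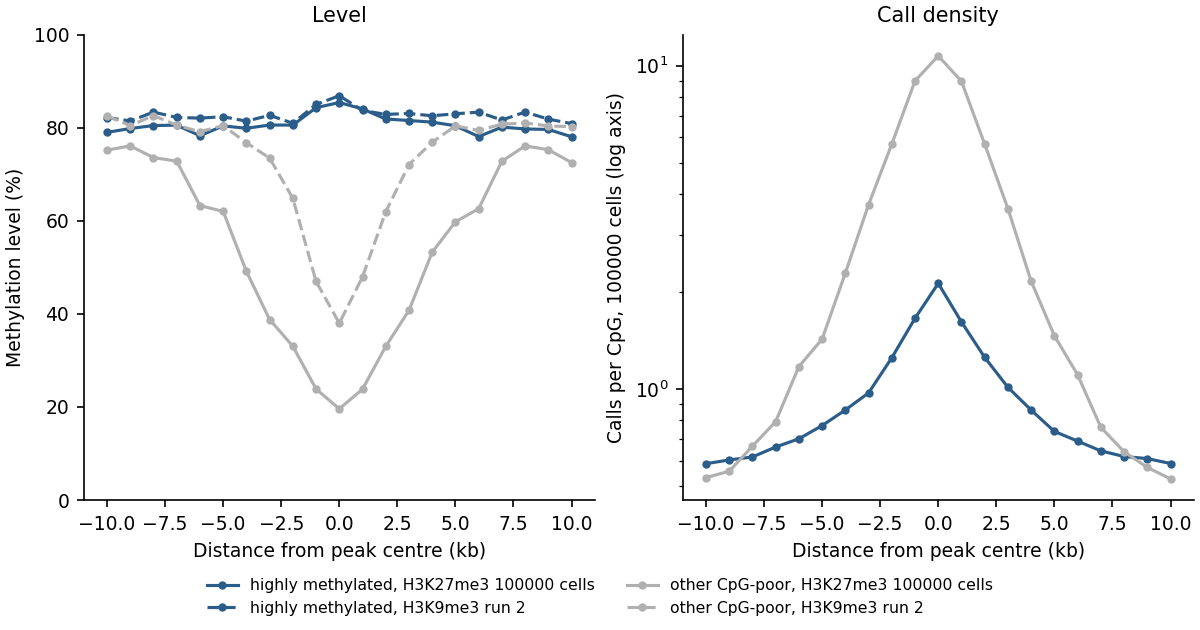
Methylation level (left, percent) and calls per CpG in the 100000-cell H3K27me3 library (right, log axis) in 1-kb steps around the peak centre (x axis, kb), for the highly methylated and the other CpG-poor peaks; dashed lines are H3K9me3 run 2. The highly methylated peaks stay near 80% or above, rising to 85.4% at the centre, while the other CpG-poor peaks fall to 19.6%; call density peaks at the centre in both sets, at 2.12 and 10.7 calls per CpG.

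Detection as a peak in each H3K27me3 library differed from that of the other CpG-poor peaks. The control without bisulfite had an overlapping peak for 93.5% (92.7 to 94.2) of the highly methylated peaks and 94.9% of the others. Among the bisulfite lists, 52.1% (50.5 to 53.7) overlapped a peak of the 250000-cell list, against 78.4%. The shares were 34.4% against 69.0% with 100000 cells and 3.81% against 37.4% with 20000. With 4000 cells, 1 highly methylated peak was found. A total of 1585 (42.2%) had a peak only in the control, compared with 17.8% of the other CpG-poor peaks. The sets also differ in width and call density, and the part of these in the shares was not tested. When a list had to cover 50% of the peak, the 20000-cell share was 0.426%, the 100000-cell share 19.7% and the 250000-cell share 39.5%.

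All peaks seen only in the control were chosen for a high level too. They stood at 86.4% with 100000 cells (median 87.5% over 1118 peaks), against 84.7% for the 1928 peaks found in the control and in at least 1 bisulfite list. Their median width was 1263 bp against 3201 bp, and their call density 1.59 against 2.50 calls per CpG. That density was 2.00 times the flanks. The 244 peaks found only in bisulfite lists had the minimum width as their median and stood at 85.8%.

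**Figure D4:**
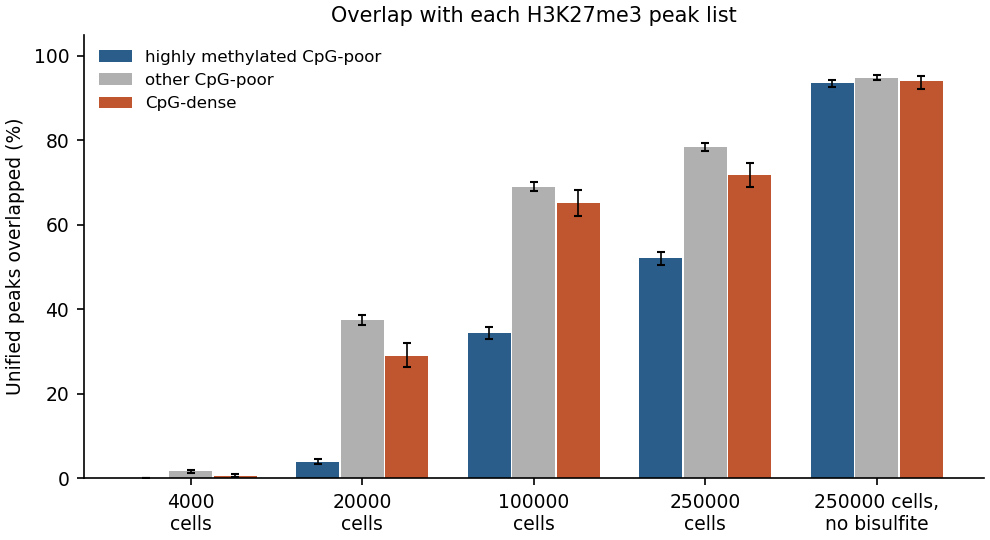
Share of unified peaks (y axis, percent) that overlap a peak of each deposited H3K27me3 list by 1 bp or more (x axis, cell number), for highly methylated CpG-poor, other CpG-poor and CpG-dense peaks; bars are shares and error bars 95% Wilson intervals for counting error. All 3 sets exceed 93% in the control without bisulfite, while in the bisulfite lists the highly methylated peaks are lowest, at 52.1%, 34.4% and 3.81% with 250000, 100000 and 20000 cells.

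The next question was whether fragments from other marks reported the same methylation at these places. The H3K9me3 run 2 library gave 86.3% ± 0.357 (15085 calls) and the H3K4me1 run 2 library 76.1% ± 0.543 (11099 calls) over the highly methylated peaks. Since the peaks overlap no peak of those marks, these calls lie outside their peaks. H3K4me1 fragments were 19.6 points more methylated in the peaks than in the flanks, which stood at 56.5%. For H3K9me3 the flanks stood at 82.0%. The peaks were chosen for a high level and the flanks were not, which bears on both gaps. Of the 3757 peaks, 1934 had no call in H3K4me1 run 2 and 1256 had none in H3K9me3 run 2. CpGs covered in different libraries are not the same, so the per-peak tests used CpGs called in both.

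At shared CpGs, 348 highly methylated peaks had 10 or more calls in the 100000-cell H3K27me3 library and in H3K9me3 run 2. Their pooled levels were 84.7% and 85.5%, with a median difference of -0.99 points (quartiles -7.56 and 6.19), and the H3K27me3 level was lower in 185 peaks and higher in 150. By Fisher's exact test with Benjamini-Hochberg adjustment over all 4990 peaks tested, a call needed an adjusted p under 0.05 and 20 points of difference. H3K27me3 was higher in 3 highly methylated peaks, and the background over all peaks tested was 0.381%. It was lower in 0 (background 13.7%). A peak chosen for a high H3K27me3 level has little room to read 20 points lower, so nothing is read from that 0 or from the lower counts that follow. At an unadjusted p under 0.05, 8 were higher (2.3%, against 1.16% of all peaks tested) and 5 lower (1.44%, against 25.3%). In the other CpG-poor peaks the median difference was -8.24 points, and 216 of 1907 were called lower. The sets were split on H3K27me3 level, so this contrast between them follows largely from the choice. The tests compare 1 library with another, not the marks in general. Fisher's exact test takes the reads of CpGs as independent, which they are not fully. The p-values here and in the comparisons below can therefore be too small.

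The 3 called peaks lay in Dlgap2, a postsynaptic scaffold gene (92.6% of 27 calls against 50.0% of 14, adjusted p = 0.026 by Fisher's exact test), in Pmfbp1, a gene for a sperm protein (94.4% of 18 against 52.9% of 17, adjusted p = 0.044), and in Mettl24, a methyltransferase-like gene (87.5% of 152 against 65.4% of 26, adjusted p = 0.048). All 3 adjusted p-values lay near the threshold. With H3K9me3 run 1 in place of run 2, 0 of 52 were called higher (0.152% of all peaks tested), and with a minimum of 20 calls 1 of 93 was (0.348%). With all CpGs of each peak, 9 of 430 were called higher and 2 lower, and the shares over all peaks were 2.49% and 22.4%.

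Against H3K4me1 run 2, 243 highly methylated peaks could be tested at shared CpGs. Pooled levels were 76.2% for H3K27me3 and 72.3% for H3K4me1, with a median difference of 2.78 points (quartiles -7.23 and 13.6). H3K27me3 was called higher in 6 peaks (background 1.43%) and lower in 0 (background 1.07%) among 9228 peaks tested. At an unadjusted p under 0.05, 15 were higher (6.17%, against 7.24% of all peaks tested) and 3 lower (1.23%, against 17.7%). As against H3K9me3, the choice left little room for a lower H3K27me3 reading, so nothing is read from the 0 or from these 3. The H3K27me3 level at these shared CpGs was thus below the 85.1% read over all CpGs of all 3757 peaks in the same library. With all CpGs of each peak, 42 of 314 were called higher (13.4%), near the 10.5% of all peaks under the same setting. With run 1 there were 2 of 85 (0.75% of all peaks), and minimums of 5 and 20 calls gave 10 of 609 (1.31%) and 3 of 69 (1.5%).

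The 5 largest of the 6 differences began with a peak 10.5 kb from Zfr, a gene for an RNA-binding protein. It read 82.6% of 46 calls against 29.6% of 27 (Fisher's exact test, adjusted p = 0.00023). Then came peaks in Rph3a, a synaptic vesicle gene (85.7% of 14 against 33.3% of 18), and near Top1mt, the mitochondrial topoisomerase gene (91.2% of 34 against 40% of 10). A further peak lay 33.8 kb from Gm30360, its nearest gene (100% of 19 against 55.6% of 18). The fifth was in Celf6, a gene for an RNA-binding protein (87.2% of 47 against 52.9% of 34). The last 4 had adjusted p-values from 0.0099 to 0.036 by the same test. Even in these peaks the H3K4me1 fragments were not unmethylated.

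Between the 100000-cell and 20000-cell H3K27me3 libraries, 1740 highly methylated peaks were tested over all their CpGs. The median difference was -0.48 points (quartiles -6.77 and 6.25), and pooled levels were 84.8% and 84.7%. The larger library was called higher in 17 peaks (0.977%, background 0.879%) and lower in 1 (background 0.639%) among 12521 tested. At an unadjusted p under 0.05, 92 were higher (5.29%, against 13.0% of all peaks tested) and 25 lower (1.44%, against 6.21%). The share called higher was near the background. With a difference of 30 points 10 were higher (0.367% of all peaks), and with 10 points 2 were lower (1.28%).

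The 5 largest differences upward lay near Gm38730 (96.8% of 63 calls against 50.0% of 14), in Pknox2, a homeobox gene (89.9% of 79 against 46.7% of 15), near 5033426O07Rik (90.2% of 102 against 47.8% of 23), in Pmfbp1 (92.9% of 42 against 53.3% of 15) and in Cdh13, the T-cadherin gene (95.8% of 48 against 58.3% of 12). Fisher's exact test gave these adjusted p-values from 0.0013 to 0.037. In each the 20000-cell reading rested on 23 or fewer calls, and the 250000-cell reading lay between 81.8% and 91.9%. The choice of peaks required a high level with 250000 cells, so nothing is read from that range. The downward call was the peak near Mug-ps1.

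**Figure D5:**
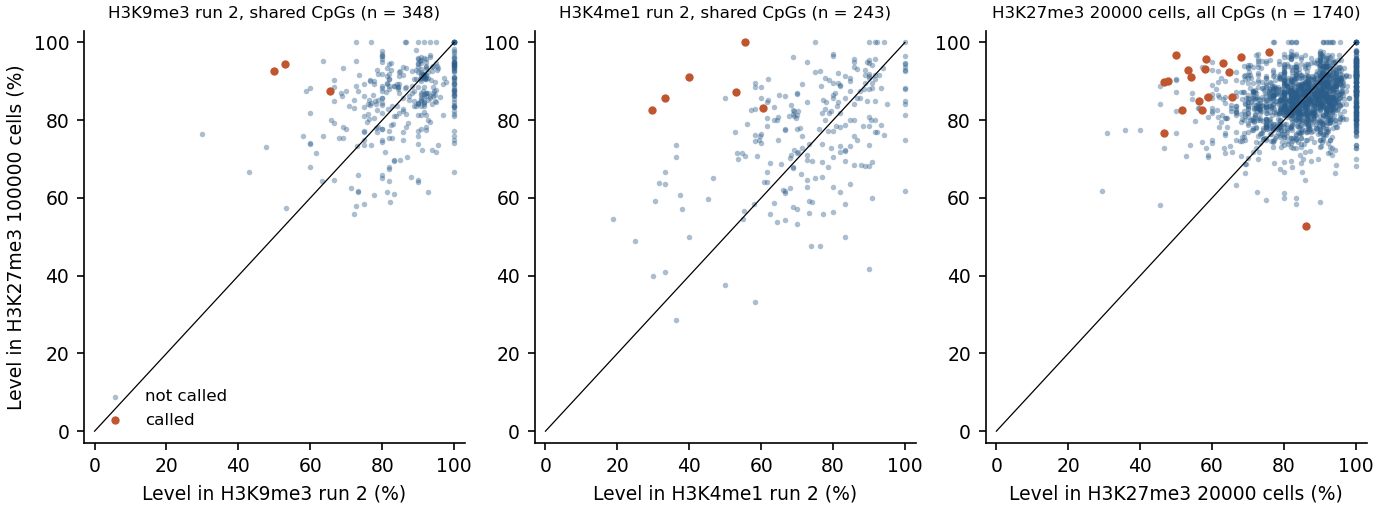
Level of each highly methylated peak in the 100000-cell H3K27me3 library (y axis, percent) against its level in H3K9me3 run 2, H3K4me1 run 2 and the 20000-cell H3K27me3 library (x axes, percent), for peaks with 10 or more calls in both; the line marks equal levels, and orange points are called by Fisher's exact test with a difference of 20 points. Calls number 3 of 348, 6 of 243 and 18 of 1740, and most points lie in the upper right corner.

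By position, the highly methylated peaks held gene starts less often than the other H3K27me3-only sets. No expectation over the genome was computed. Of 3757, 57.7% overlapped any RefSeq gene and 45.2% a protein-coding gene, against 70.7% and 60.2% of the other CpG-poor peaks. A gene start lay inside 193 (5.14%, 4.48 to 5.89), against 28.1% of the other CpG-poor and 59.1% of the CpG-dense peaks. A share of 40.2% lay wholly inside a protein-coding gene, against 29.3%, a measure that favours narrow peaks. By the peak centre the order was reversed, with 43.4% in a protein-coding gene against 50.1%. With 100000 cells the median level was 84.2% over the 181 peaks with a gene start and 20 or more calls and 86.4% over the 2904 without. In the other CpG-poor peaks the same medians were 25.6% and 60.6%. The wider peaks of that set can hold more gene starts, and the part of width was not tested. Exons and introns were not annotated here.

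A total of 1169 protein-coding genes overlapped a highly methylated peak, 321 of them with 2 or more peaks and 29 with 5 or more. Shank2, which encodes a postsynaptic scaffold, held 13 peaks over its 448 kb, at 88.7% of 477 calls in the 100000-cell library. Hydin, needed for motile cilia, held 10 at 86.0% of 1229 calls, and Asic2, an acid-sensing ion channel gene, 9 at 83.1% of 1106. Peaks numbered 7 each in Adcy5 (adenylyl cyclase, 85.7%), Kcnd3 (a voltage-gated potassium channel, 85.2%), Prdm16 (a transcription factor of brown fat, 88.1%) and Slit3 (86.0%). Within genes the readings differed: the 9 in Asic2 ran from 77.3% to 92.3%. Those in Jakmip3, with 405 calls in all, ran from 52.0% to 94.1%. These ranges include counting error, and differences within a gene were not tested.

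Gene families differed in how many members held such a peak, beside 5.66% of all 20665 protein-coding genes. Among calcium and sodium channel genes it was 17 of 39, led by Cacna1c, Cacna1g and Cacna1i with 3 peaks each. Collagen genes gave 19 of 42, led by Col23a1 with 3. The other CpG-poor peaks were held by 21 and 26 genes of the same lists. Both families have long genes, with medians of 110.5 and 110.4 kb against 17.5 kb over all genes, and the part of gene length was not tested. In other lists of long genes the counts were 3 of 25 for glutamate receptors, 0 of 16 for GABA receptors and 3 of 21 for teneurins, neurexins and contactins. Of these same genes, 15, 10 and 16 held one of the other CpG-poor peaks.

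For axon guidance genes the count was 10 of 65, led by Slit3, for potassium channels 11 of 92, led by Kcnd3, for cadherins and protocadherins 10 of 101, led by Cdh4, and for solute carriers 31 of 362, led by Slc14a2 with 6. Developmental transcription factors, the class of gene best known as a Polycomb target, gave 14 of 178, led by Pax5 with 3. Signalling ligands gave 7 of 59, led by Wnt7a with 3, and keratins 10 of 109. Phosphodiesterases gave 3 of 26 and ADAM and ADAMTS genes 3 of 58. Few were held by 3 lists of short genes: olfactory receptors 4 of 1104, vomeronasal receptors 0 of 354 and microRNA genes 8 of 1090. Keratin genes, at a median of 1.65 kb, are short too and did not share these low counts. The part of gene length was not tested. The median level of the peaks in each list with any lay between 83.6% (collagens) and 89.6% (solute carriers) with 100000 cells.

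Peaks that take in several genes were rare, with 8 covering 3 or more. The most genes lay under chr6:41534661-41536034, in the joining segments of the T-cell receptor beta locus (Tcrb), at 70% of only 10 calls. A peak over Ank1, Gm15816, Mir486 and Mir3107 stood at 87.2% of 78 calls. One over Slamf9, Gm7804 and Gm35522 stood at 85.9% of 99, and one over LOC108167929, Prr29 and Icam2, an adhesion molecule of endothelial cells, at 82.2% of 208.

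The highly methylated peaks lay close to other H3K27me3 peaks. The nearest other unified H3K27me3 peak was a median of 4.67 kb away, against 9.29 kb for the other CpG-poor peaks and 47.9 kb for CpG-dense ones. H3K4me1 and H3K9me3 peaks were farther, at medians of 23.9 and 81.7 kb. Linked at gaps of up to 100 kb, 66.5% of the highly methylated peaks fell into groups of 2 or more, and 122 groups had 5 or more. The same linking was not done for the other CpG-poor peaks, so these counts have no background and do not set the peaks apart. The largest had 30 peaks at chr7:95562894-96143956, overlapped no protein-coding gene, and stood at 87.9% of 2403 calls with 100000 cells. Of its peaks, 28 were in the 250000-cell list and 28 in the control, and the 23 with 20 or more calls ran from 76.5% to 100%.

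The next group, 19 peaks at chr3:107363961-108023293, took in parts of Eps8l3, Gstm6, Slc6a17 and Ubl4b and stood at 86.0% of 1627 calls. The third, 17 peaks at chr7:143900761-144397023, held all 13 of the Shank2 peaks and stood at 89.4% of 820 calls. The fourth, 15 peaks at chr5:34992864-35499780, included the Rgs12 peak shown above and stood at 85.4% of 833 calls. The fifth, 15 peaks at chr15:78339366-78700256, lay over the blood cell genes Il2rb, Csf2rb and Rac2 and over Cyth4, Tmprss6, Elfn2 and Tex33, at 83.5% of 1264 calls. Its 14 peaks with 20 or more calls ran from 63.3% to 93.8%, a range that includes counting error.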

How the data were processed

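Methylation was read from 1 deposited table of methylated and all read counts at 21908008 CpGs, in 8 columns of bisulfite libraries or runs (0 count columns had no sample), and positions from BED files of peaks, both made by the authors. Per the submitters' processing notes, cutadapt 1.12, Bismark 0.23.0, Bowtie2 2.3.0, HOMER 4.10.3 and bedtools 2.29.2 were used, with build mm10. How unified peaks were joined is not given in the sources used here. Total calls per library ran from 378056 (4000 cells) to 37177077 (250000 cells), and run 2 of H3K4me1 and H3K9me3 had 9690770 and 6355757.

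At CpGs of the highly methylated peaks called once in each of 2 libraries, the states were equal at 80.5% for the 100000-cell and 250000-cell libraries, 97.3% for the H3K9me3 runs and 99.0% for the H3K4me1 runs. The labels do not say how the runs relate, and from these shares runs of 1 mark were counted as 1 sample, and the deeper run 2 was used. Every CG in the RefSeq promoter windows on the chromosomes used lay at a CpG of the table (100%), which checked build and strand.

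Levels were summed methylated over summed calls, with a jackknife over chromosomes. Flanks were 5 kb on each side outside all unified peaks. Fisher's exact test (SciPy 1.17.1, two-sided, 10 or more calls in each library) was run over all unified H3K27me3 peaks and tested on simulated data. Alternatives covered minimum calls, thresholds, runs, overlap, flank size and the choice of peaks. Named peaks are those with the most calls, the widest, the largest called differences, those at the 80% boundary, the lowest and highest levels with 50 or more calls, the promoter windows with the most calls, peaks over 3 or more genes, and the 5 largest groups. Peaks and gene lists were chosen with earlier results of these data known.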

Additional observations from a re-analysis of the deposited data

How the results depend on the processing

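Of 66 alternative values for 21 results, 39 stayed within the margin of the main value and 27 moved. The margin was the 95% interval of the main value for levels and shares, and a factor of 1.5 for counts of calls. Both alternative call-density ratios were counted as moved without a margin. Pooled levels moved little. With 100000 cells the level was 84.8% for peaks with 50 or more calls in the choosing library, 84.7% for those in the 250000-cell list and 86.4% for those with no bisulfite peak. With 20000 cells it was 84.5% and 86.6% for the last 2 sets, and with 4000 cells 86.1% for the last. The median over single peaks was 85.5% at 50 or more calls with 100000 cells and 86.2% at 10 or more with 20000, and 50 or more calls left no peak with 4000. Choosing the peaks on the 100000-cell library gave 3205, of which 2460 were shared (76.8% of these and 65.5% of the original), and they read 84.9% with 250000 cells. The sets based on peak lists were chosen after seeing the data.

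Calls at single peaks moved more. Against H3K9me3, 3 higher became 1 at 20 calls and 9 with all CpGs, where 2 were lower. Against H3K4me1, 6 higher became 10 at 5 calls, 3 at 20 calls and 42 with all CpGs. With run 1 in place of run 2, the higher calls were 0 against H3K9me3 and 2 against H3K4me1. Between the 100000-cell and 20000-cell libraries, a difference of 10 points gave 2 lower and 30 points 10 higher.

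Covering 50% of a peak lowered the shares in the lists to 0.426% (20000 cells), 19.7% (100000) and 39.5% (250000). By the peak centre, 54.0% lay in any gene and 43.4% in a protein-coding gene. The flank level was 80.6% as a mean of single CpGs. Call density over flanks was 3.85 with flanks of 20 kb and 2.00 for peaks with no bisulfite peak.

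No paired analysis was possible because each H3K27me3 cell number has 1 library with no run number. The labels do not say how the 2 runs of the other marks relate beyond read length, and they were counted as 1 sample for their shared call states. Depth limits the 4000-cell library, where 2550 highly methylated peaks had no call, and the H3K4me1 and H3K9me3 tests, which reached 6.47% and 9.26% of the peaks.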

Other observations

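The peak near Mug-ps1 at chr6:122257082-122258906 had its lowest level in the 100000-cell H3K27me3 library. It stood at 84.8% of 184 calls with 250000 cells, 52.7% of 165 calls (45.1 to 60.2) with 100000 and 86.0% of 43 calls with 20000. The choice of peaks required a high level with 250000 cells, so that reading does not show which library is the unusual one. The peak was also singled out after testing for its low reading with 100000 cells, which bears on both gaps. Its density, 29.6 CpGs per kb, lay just under the limit of the choice. The difference between the 100000-cell and 20000-cell libraries was -33.3 points (Fisher's exact test with Benjamini-Hochberg adjustment over all peaks tested, adjusted p = 0.0025). No cause was tested.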
